A study of Mus musculus with 9 samples.

Results

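Triglyceride is delivered to heart muscle, stored there in lipid droplets and broken down again by the products of 10 genes, whose transcripts are described here in mouse heart. They comprise the secreted lipase gene Lpl and the gene of its endothelial anchor, Gpihbp1; the intracellular lipase genes Pnpla2, Lipe and Mgll with the lipase cofactor gene Abhd5; the perilipin genes Plin4 and Plin5; and the acyltransferase genes Dgat1 and Dgat2. They were taken by symbol from a table of read counts, and all 10 were found among its 13192 named genes.

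The RNA came from the apex of the heart of male wild-type C57BL/6J mice. At 10 weeks of age they had been given adeno-associated virus (AAV), at 1e+11 viral particles a mouse, into the right gastrocnemius, a leg muscle, and the heart was taken 12 weeks later. AAV-Osm, in 5 libraries, carries the gene of oncostatin M, a cytokine of the interleukin-6 family, and AAV-Null, in 4 libraries, is the control vector. All 9 libraries thus came from mice injected with a virus, and the labels do not give the promoter that drives the transgene. Each library is listed as its own sample with no mouse named, and the p-values below therefore rest on the spread among 9 samples, which may in part be technical.

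Lipoprotein lipase, the product of Lpl, is made by heart muscle cells and splits the triglyceride of circulating lipoproteins at the wall of capillaries. GPIHBP1 carries it across the endothelial cell and holds it there. Inside the cell, fatty acids that are not burned are esterified to triglyceride, the last step being that of the DGAT enzymes, and are coated into droplets by perilipins. Release runs in sequence through adipose triglyceride lipase (Pnpla2), which takes triglyceride to diacylglycerol, hormone-sensitive lipase (Lipe), which takes diacylglycerol to monoacylglycerol, and monoglyceride lipase (Mgll). Fatty acids so released are fuel for the heart and ligands for PPAR nuclear receptors.

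None of the 10 transcripts passed the test for a difference between AAV-Osm and AAV-Null hearts. By their fitted values Lipe was 1.36-fold higher and Gpihbp1 1.49-fold lower in AAV-Osm hearts, and for these 2 genes the ranges of the groups lay apart. The threshold was an adjusted p under 0.05 over all genes in edgeR's quasi-likelihood test, which 0 of the 10 genes and 0.121% of all genes passed. On simulated counts this test recovered 8 of 50 genes changed 1.5-fold and 40 of 50 changed 2-fold. The simulated counts gave 153 calls, against 16 in the data, so recovery in the data may be lower. A gene that did not pass is therefore not shown to be unchanged. At an unadjusted p under 0.05 edgeR gave 2 of the 10, Lipe and Gpihbp1, where 5.97% of all genes were so called. The groups did not overlap for 1 gene higher in AAV-Osm (Lipe; 1.05% of all genes) and 1 gene lower (Gpihbp1; 1.23% of all genes), beside 2.28% of all genes in either direction. The 10 genes were chosen with earlier results of these data known, Lipe's among them, so these shares are a description. DESeq2, limma-voom and limma-voom with quality weights likewise called 0 of the 10. The median log2 fold change, AAV-Osm over AAV-Null, was 0.032 over the 10 genes and 0.009 over all genes; 5 of the 10 values were positive and 5 negative.

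**Figure D1:**
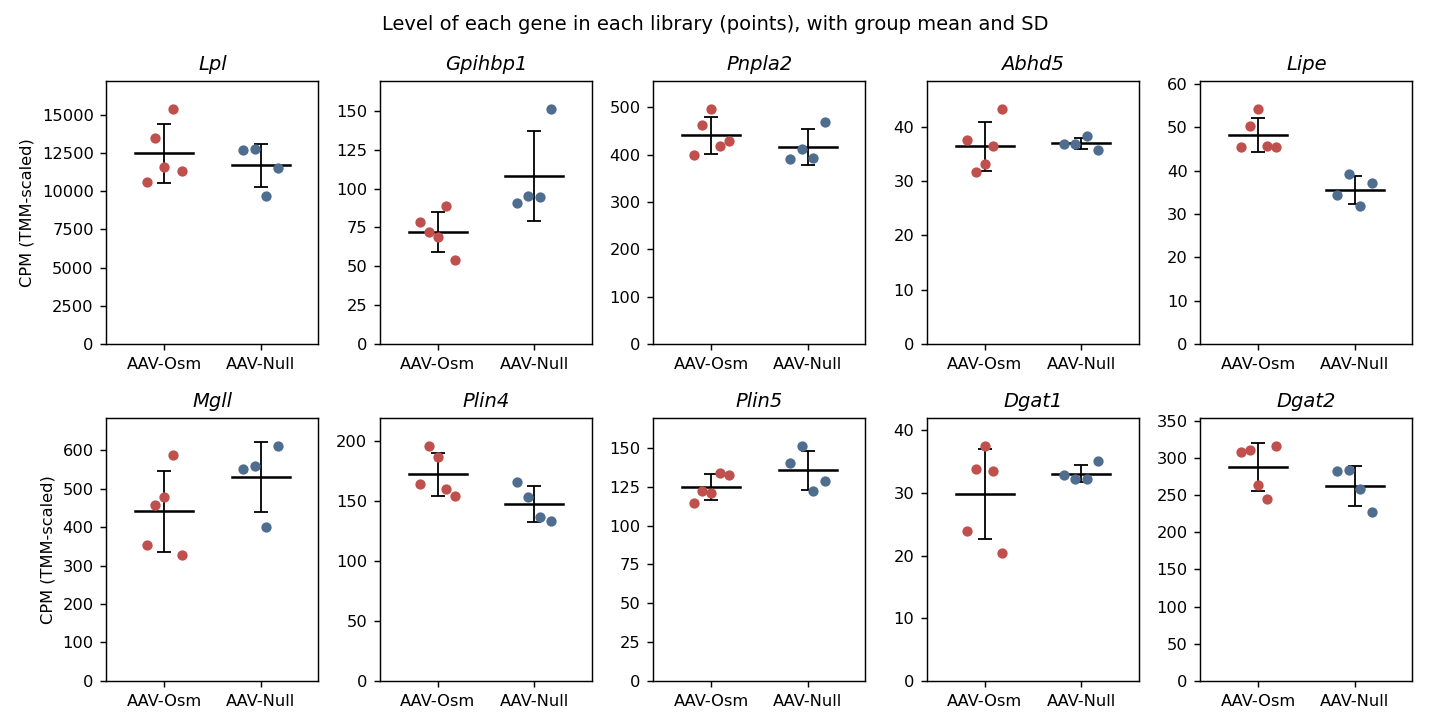
Level of each of the 10 genes in CPM (counts scaled to 1000000 per library with TMM factors; vertical axes start at 0) in 5 AAV-Osm and 4 AAV-Null libraries; each point is a library, the line is the group mean and the bar the SD. The groups do not overlap for Lipe, at 45.5 to 54.2 CPM in AAV-Osm and 31.8 to 39.2 CPM in AAV-Null, nor for Gpihbp1, whose highest value is AAV-Null 4.

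Libraries held 11841106 to 30625134 counts over the named genes, and each of the 10 genes had at least 384 counts in every library. Of 12 cardiomyocyte markers all were in the table, with summed levels of 93230 to 121800 CPM in AAV-Osm and 89590 to 117900 CPM in AAV-Null libraries. AAV-Null 4 stood apart in mesothelial markers (8 of 8 in the table), which summed to 13.2 to 49.4 CPM in AAV-Osm and 49.5 to 145 CPM in AAV-Null libraries, AAV-Null 4 being the highest. Every AAV-Osm library was below every AAV-Null library in this sum, AAV-Osm 3 by a small margin. An exact permutation test of it (two-sided) gave p = 0.0159, the smallest possible here, and 0.0714 after adjustment over 9 marker lists. The marker lists were chosen with earlier results of these data known, so these p-values are a description. All 8 mesothelial markers had a negative log2 fold change and 0 passed. Liver-type markers (15 of 15) summed to 60.0 to 151 CPM in AAV-Osm and 52.6 to 318 CPM in AAV-Null libraries, highest in AAV-Null 3, and all 15 had a negative log2 fold change. Fibroblast markers (10 of 10, all negative) summed to 1845 to 2894 CPM in AAV-Osm and 2327 to 3572 CPM in AAV-Null libraries, and macrophage markers (10 of 10) to 471 to 667 CPM in AAV-Osm and 445 to 946 CPM in AAV-Null libraries. AAV-Null 4 was the highest of the 9 libraries in both sums. Fewer cells of a type and less RNA per cell cannot be told apart in these tissue samples.

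The Lipe promoter is shown first, because Lipe had the smallest p of the 10 genes. RefSeq (GRCm38.p6, the mm10 assembly) gave promoter windows, from 250 bases before to 50 after a start, for 6 of the 10 genes and 9 windows in all; Lpl, Gpihbp1, Dgat1 and Dgat2 had none in the table used. Lipe had 2 starts, and the counts, summed over the gene, do not separate them. Both windows are on the minus strand, window 1 at chr7:25395938-25396237 and window 2 at chr7:25390063-25390362, written 5′ to 3′ with motif matches in capitals.
Lipe window 1: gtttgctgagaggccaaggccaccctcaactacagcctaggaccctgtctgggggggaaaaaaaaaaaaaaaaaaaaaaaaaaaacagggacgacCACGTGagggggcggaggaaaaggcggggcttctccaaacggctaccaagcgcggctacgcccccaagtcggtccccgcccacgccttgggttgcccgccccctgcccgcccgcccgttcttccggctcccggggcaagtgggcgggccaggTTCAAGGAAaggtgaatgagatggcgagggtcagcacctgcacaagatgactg
Lipe window 2: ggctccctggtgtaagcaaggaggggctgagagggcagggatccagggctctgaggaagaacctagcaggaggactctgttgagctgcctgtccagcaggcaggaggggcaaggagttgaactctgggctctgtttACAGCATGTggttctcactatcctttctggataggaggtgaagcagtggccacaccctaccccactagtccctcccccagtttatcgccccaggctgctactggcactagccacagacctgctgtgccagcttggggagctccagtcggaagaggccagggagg
The capitals mark, in window 1, an E-box (CACGTG, bound by clock and other bHLH factors) and an element of the STAT form TTCNNNGAA, and in window 2 a match to ACANNNTGT, the core of glucocorticoid receptor elements. On both strands, CACGTG was found in 7.15%, TTCNNNGAA in 8.30% and ACANNNTGT in 6.85% of 32851 mouse promoter windows of the same length. The spaced repeat DR1, the form bound by PPAR with RXR, had 0 matches in the 9 windows and was found in 0.381% of all windows. Its half-site AGGTCA had 1 match in each Plin5 window and 1 in the Abhd5 window (16.3% of all windows), and CACGTG had 1 in a Mgll window. The D-box form TTANNTAA had 0 matches in the 9 windows (6.00% of all). A match is a description of letters and not a bound site.

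Levels of different genes were compared as RPKM, that is CPM divided by the summed exon length in kilobases. Lpl was by far the most abundant, at 3080 ± 478 RPKM in AAV-Osm (SD, n = 5) and 2886 ± 352 RPKM in AAV-Null hearts (SD, n = 4), above 99.9% of all genes. Pnpla2 came next, at 162 ± 14.2 RPKM in AAV-Osm and 153 ± 13.6 RPKM in AAV-Null hearts, and in all 9 libraries it lay above Dgat2. Dgat2 (128 ± 14.4 RPKM in AAV-Osm, 117 ± 11.8 RPKM in AAV-Null), Gpihbp1 (90.8 ± 16.1 RPKM in AAV-Osm, 135 ± 36.2 RPKM in AAV-Null) and Mgll (95.3 ± 22.6 RPKM in AAV-Osm, 115 ± 19.7 RPKM in AAV-Null) overlapped in the order. Of these 3 genes Gpihbp1 had the lowest mean in AAV-Osm hearts and the highest in AAV-Null hearts. Plin5, at 61.2 ± 4.06 RPKM in AAV-Osm and 66.5 ± 6.27 RPKM in AAV-Null hearts, and Plin4, at 29.9 ± 3.13 RPKM in AAV-Osm and 25.6 ± 2.65 RPKM in AAV-Null hearts, were apart from each other in all 9 libraries. Lowest were Dgat1 (17 ± 4.13 RPKM in AAV-Osm, 18.8 ± 0.769 RPKM in AAV-Null), Lipe (14.8 ± 1.19 RPKM in AAV-Osm, 10.9 ± 0.991 RPKM in AAV-Null) and Abhd5 (11.6 ± 1.43 RPKM in AAV-Osm, 11.7 ± 0.335 RPKM in AAV-Null), and neighbours among them overlapped. Lipe had the higher mean than Abhd5 in AAV-Osm and the lower in AAV-Null hearts. Even the lowest of the 10 lay above 71.1% of all genes per length.

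Of the 2 genes that act at the capillary, Lpl (chromosome 8, 68880555 to 68906932, plus strand, mm10) did not differ beyond the spread between libraries. It had 10600, 13500, 11570, 15360 and 11330 CPM in AAV-Osm 1 to 5 and 12720, 12750, 9717 and 11550 CPM in AAV-Null 1 to 4. AAV-Osm 4 was the highest and AAV-Null 3 the lowest of the 9. The log2 fold change was 0.09 (SE 0.16, edgeR adjusted p = 0.977), with a 95% interval of -0.25 to 0.43.

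Gpihbp1 (chromosome 15, 75596658 to 75598213, plus strand), which is made by capillary endothelium and not by the muscle cells, had 78.3, 71.9, 68.8, 88.9 and 53.9 CPM in AAV-Osm 1 to 5 and 90.5, 95.2, 94.7 and 151 CPM in AAV-Null 1 to 4. All AAV-Osm libraries were below all AAV-Null libraries, AAV-Osm 4 by a small margin, and AAV-Null 4 was far above the other AAV-Null libraries. The log2 fold change was -0.58 (SE 0.18, edgeR adjusted p = 0.579, unadjusted p = 0.00778), with a 95% interval of -0.97 to -0.18. Without AAV-Null 4 it was -0.37 (unadjusted p = 0.0363, adjusted p = 0.907), with AAV-Null 3 and 4 left out it was -0.36 (unadjusted p = 0.0740), and on dropping both AAV-Osm 5 and AAV-Null 4 it was -0.28 (unadjusted p = 0.0630).

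Other endothelial genes were set beside Gpihbp1. Of 12 capillary endothelial markers all were in the table, 9 with a negative and 3 with a positive log2 fold change. Of them 1 passed, beside 0.121% of all genes. It was the water channel gene Aqp1 (194 to 218 CPM in AAV-Osm, 331 to 378 CPM in AAV-Null libraries). Rgcc had a log2 fold change of -0.595 (edgeR adjusted p = 0.622), at 9.04 to 16.1 CPM in AAV-Osm and 14.6 to 24.7 CPM in AAV-Null libraries. Esam had one of -0.178 (edgeR adjusted p = 0.934), without overlap, at 40.9 to 52.2 CPM in AAV-Osm and 52.7 to 55.7 CPM in AAV-Null libraries. Both were named after their values were seen, and the groups did not overlap for 2.28% of all genes. Apart from Aqp1, Rgcc and Esam, the log2 fold changes of the list ran from -0.131 (Egfl7) to 0.052 (Tek). The summed level of the 12 markers was 980 to 1083 CPM in AAV-Osm and 1160 to 1299 CPM in AAV-Null libraries, without overlap. An exact permutation test of the sums (two-sided) gave p = 0.0159, the smallest it can give with 5 and 4 libraries, and 0.0714 after adjustment over 9 marker lists. Aqp1 made up 24% of that sum. The 11 markers without Aqp1, a sum chosen after seeing the data, overlapped, at 776 to 873 CPM in AAV-Osm and 829 to 930 CPM in AAV-Null libraries (exact permutation p = 0.111). The marker lists were chosen with earlier results of these data known, so neither p can decide on endothelial content. As a percentage of those 11, Gpihbp1 was 6.18 to 10.2 in AAV-Osm and 9.84 to 16.2 in AAV-Null libraries, and as a percentage of all 12 it was 5.02 to 8.21 in AAV-Osm and 6.97 to 11.7 in AAV-Null libraries, so on both scales the groups overlapped. The log2 ratio of the group means of Gpihbp1 relative to the 11 markers was -0.49, beside a log2 fold change of -0.58 for Gpihbp1 itself, and the ranges crossed between 9.84 and 10.2. The part of endothelial content in the Gpihbp1 difference was not tested. AAV-Null 4 also had the highest mesothelial, fibroblast and macrophage sums, and their part in the Gpihbp1 value was not tested.

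**Figure D2:**
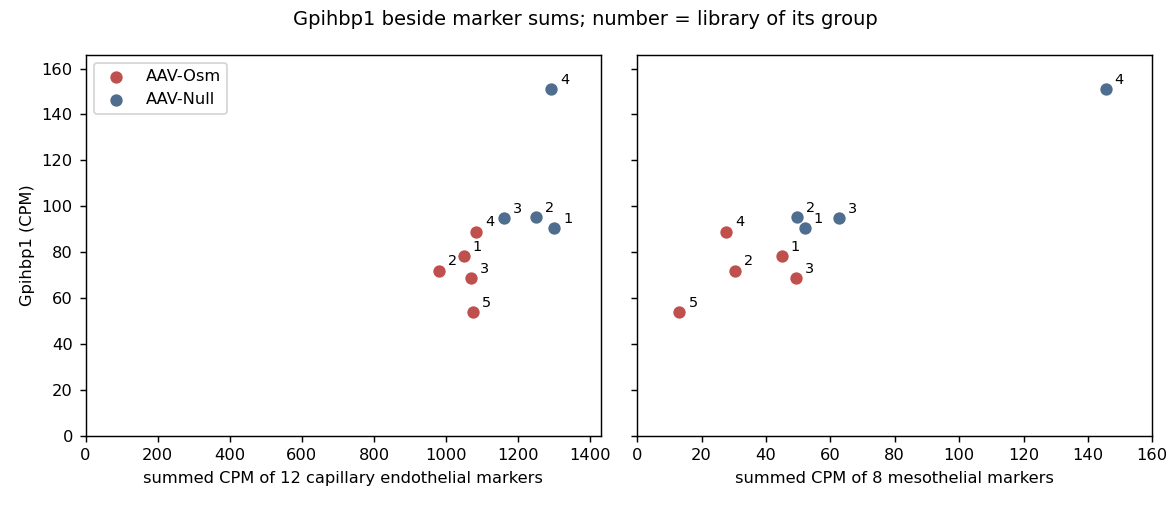
Gpihbp1 level (CPM, vertical axis from 0) against the summed CPM of 12 capillary endothelial markers (left) and of 8 mesothelial markers (right, both horizontal axes from 0); points are libraries, numbered within their group. AAV-Null 4 has the highest Gpihbp1 level, 151 CPM, and the highest mesothelial sum, 145 CPM, and the 5 AAV-Osm libraries have endothelial sums of 980 to 1083 CPM.

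Set against Gpihbp1 within each library, Lpl gave an RPKM ratio of 34.4 ± 5.41 in AAV-Osm (SD, n = 5) and 22.3 ± 5.83 in AAV-Null hearts (SD, n = 4). The ranges overlapped, at 26.7 to 41.4 in AAV-Osm and 15.1 to 27.7 in AAV-Null. Angptl4, whose product inactivates lipoprotein lipase, was the gene around Lpl that did rise. It had 12.3, 26.5, 25.4, 35.4 and 16.1 CPM in AAV-Osm 1 to 5 and 3.46, 3.38, 6.81 and 7.78 CPM in AAV-Null 1 to 4 (log2 fold change 2.10, SE 0.34, edgeR adjusted p = 0.0369). All AAV-Osm libraries were above all AAV-Null libraries, and AAV-Osm 1 and 5 were the lowest of their group. In edgeR, leaving out any of AAV-Null 1, 2 and 3 and AAV-Osm 2, 3 and 4 ended the call (adjusted p 0.0912 to 0.145), as did keeping only genes with a mean of at least 5 CPM (adjusted p = 0.0506). The Lpl to Angptl4 ratio was 204 to 406 in AAV-Osm and 671 to 1774 in AAV-Null libraries, as RPKM; it carries the Angptl4 difference and is no separate result.

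Among the intracellular lipases, Pnpla2 (chromosome 7, 141455188 to 141460743, plus strand), the gene of the lipase that starts lipolysis, did not differ beyond the spread between libraries. It had 398, 463, 496, 417 and 430 CPM in AAV-Osm 1 to 5 and 390, 412, 393 and 470 CPM in AAV-Null 1 to 4. The ranges overlapped. For Pnpla2 the log2 fold change was 0.08 (SE 0.13, edgeR adjusted p = 0.976; 95% interval -0.19 to 0.36). Abhd5 (chromosome 9, 122351616 to 122381523, plus strand) encodes CGI-58, the cofactor that activates the Pnpla2 product. It had 37.6, 31.6, 33.2, 36.5 and 43.2 CPM in AAV-Osm 1 to 5 and 36.8, 36.9, 38.3 and 35.7 CPM in AAV-Null 1 to 4. Both the highest and the lowest value were in AAV-Osm libraries, and the log2 fold change was -0.02 (SE 0.13, edgeR adjusted p = 0.997; 95% interval -0.29 to 0.25). In GENCODE M21, 16% of the Abhd5 exon bases are shared with an antisense gene, A730085K08Rik. Those exons sum to 5956 bases, against 3148 in the counted table, and whether the shared bases were counted was not checked. The strand setting of the counting is not given in the sources used here, so reads of any shared bases cannot be told apart.

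Lipe (chromosome 7, 25379527 to 25395987, minus strand), the hormone-sensitive lipase gene, had 45.5, 50.3, 54.2, 45.8 and 45.5 CPM in AAV-Osm 1 to 5 and 34.3, 39.2, 31.8 and 37.2 CPM in AAV-Null 1 to 4. Every AAV-Osm library was above every AAV-Null library. The means were 48.3 ± 3.88 CPM in AAV-Osm (SD, n = 5) and 35.6 ± 3.24 CPM in AAV-Null hearts (SD, n = 4). The log2 fold change was 0.44 (SE 0.12, 95% interval 0.17 to 0.70), its unadjusted p was 0.00329, the 90th smallest of 13192, and its edgeR adjusted p was 0.483. With 1 library left out in turn the value ran from 0.39 to 0.49, with unadjusted p of 0.00386 to 0.0147 and adjusted p of 0.352 to 0.933 in edgeR. The DESeq2 adjusted p was 0.0904 and that of limma-voom with quality weights 0.0591, both above the threshold. An antisense gene, 4732471J01Rik, shares 15.6% of the Lipe exon bases in GENCODE M21. Those exons sum to 5886 bases, against 3272 in the counted table, with the same limits as for Abhd5.

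Lipe is also abundant in adipocytes, so adipocyte markers were read beside it. Of 16 markers 9 were in the table, and Adipoq, Plin1, Lep and Cidec were not analysed here. Of the 9, 3 had a positive and 6 a negative log2 fold change, and 0 passed. They summed to 557 to 818 CPM in AAV-Osm and 570 to 964 CPM in AAV-Null libraries, and Fabp4, which capillary endothelium also expresses, made up 89.8% of that sum. Cfd, the adipsin gene and a defining adipocyte transcript, was at 0.38 to 1.4 CPM in AAV-Osm and 0.206 to 1.32 CPM in AAV-Null libraries. Of 8 brown adipocyte markers 3 were in the table, summing to 58.0 to 85.6 CPM in AAV-Osm and 57.6 to 72.6 CPM in AAV-Null libraries. These sums and Cfd overlapped between the groups. Scd1, a desaturase gene of the adipocyte list, did not, at 4.25 to 7.92 CPM in AAV-Osm and 8.28 to 14.8 CPM in AAV-Null libraries (log2 fold change -0.61, edgeR adjusted p = 0.689). It was named after its values were seen, and the groups did not overlap for 2.28% of all genes. Cfd had a log2 fold change of 0.70 (edgeR adjusted p = 0.933). The part of adipocyte RNA in the Lipe value was not tested.

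Mgll (chromosome 6, 88724412 to 88828360, plus strand), the gene of the lipase of the last step, spread widely. It had 353, 459, 479, 587 and 327 CPM in AAV-Osm 1 to 5 and 550, 558, 399 and 611 CPM in AAV-Null 1 to 4. AAV-Osm 1 and 5 were below all other libraries, while AAV-Osm 4 was among the highest. For Mgll the log2 fold change was -0.27 (SE 0.19, edgeR adjusted p = 0.934; 95% interval -0.67 to 0.14). The SD within groups on the log2 scale was 0.31 for Mgll, larger than that of 71.4% of genes with a mean of at least 10 CPM. It was 0.12 for both Lipe and Pnpla2 and 0.11 for Plin5, with 6.54%, 7.30% and 4.96% of those genes below.

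**Figure D3:**
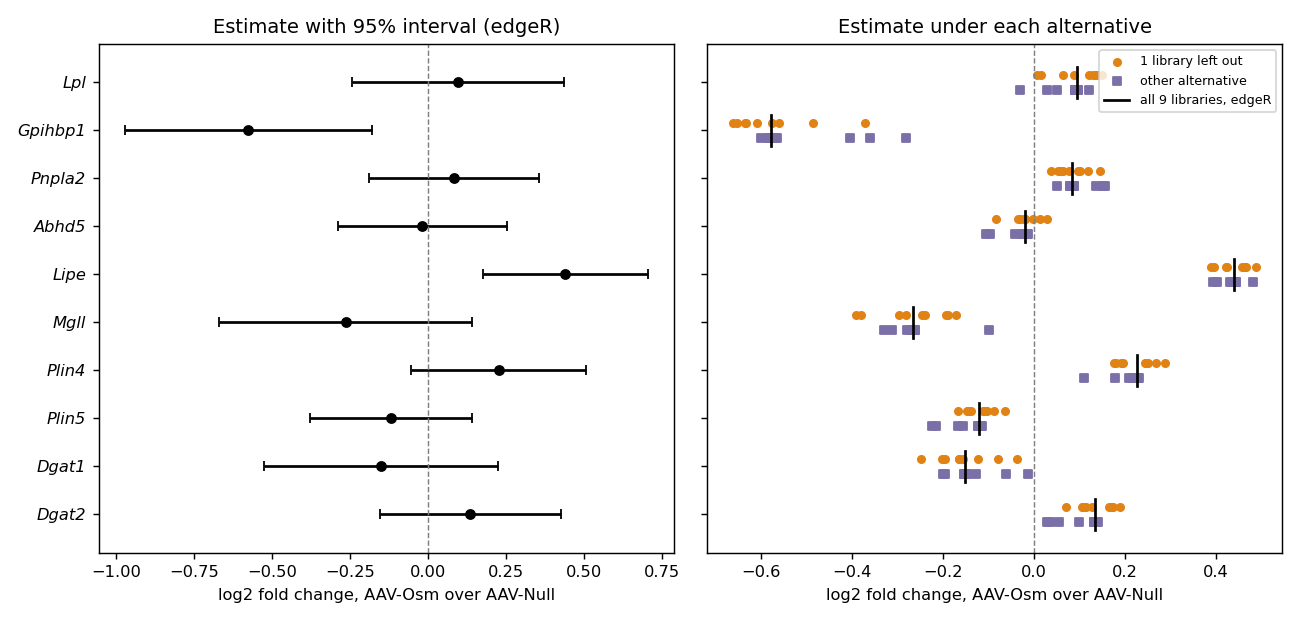
Log2 fold change, AAV-Osm over AAV-Null, of the 10 genes by edgeR with 95% intervals (left), and the same under each alternative (right; circles, 1 library left out; squares, other scalings, filters, tests and left-out pairs; black lines, all 9 libraries). The intervals of Lipe (0.17 to 0.70) and Gpihbp1 (-0.97 to -0.18) leave out 0, and Gpihbp1 moves closest to 0, to -0.28, without AAV-Null 4 and AAV-Osm 5.

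The perilipin genes Plin4 and Plin5 lie side by side on chromosome 17 on the minus strand (56100591 to 56109802 and 56111601 to 56117548), with 1798 bases between them. Plin4, which coats small droplets in muscle and fat, had 164, 196, 186, 160 and 154 CPM in AAV-Osm 1 to 5 and 166, 153, 137 and 133 CPM in AAV-Null 1 to 4. The groups overlapped through AAV-Null 1, and the log2 fold change was 0.23 (SE 0.13, edgeR adjusted p = 0.909; 95% interval -0.06 to 0.51). Plin5, the perilipin of oxidative tissue that restrains lipolysis and tethers droplets to mitochondria, had 114, 122, 121, 134 and 132 CPM in AAV-Osm 1 to 5 and 140, 151, 122 and 128 CPM in AAV-Null 1 to 4. Its groups overlapped, and its log2 fold change was -0.12 (SE 0.12, edgeR adjusted p = 0.955; 95% interval -0.38 to 0.14). The RPKM ratio of Plin4 to Plin5 was 0.492 ± 0.0707 in AAV-Osm (SD, n = 5) and 0.386 ± 0.0287 in AAV-Null hearts (SD, n = 4). AAV-Osm 4 and 5, at 0.424 and 0.412, lay beside AAV-Null 1 at 0.421, and the other AAV-Osm libraries lay above all AAV-Null libraries. This ratio and those below were chosen for description and carry no test.

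The acyltransferase genes showed a contrast within the AAV-Osm group. Dgat1 (chromosome 15, 76502015 to 76511818, minus strand), the enzyme gene tied to re-esterification of incoming fatty acids, had 24.0, 33.7, 37.5, 33.4 and 20.4 CPM in AAV-Osm 1 to 5 and 32.8, 32.2, 32.2 and 35 CPM in AAV-Null 1 to 4. AAV-Osm 1 and 5 were below all other libraries, as for Mgll, and the other AAV-Osm libraries were at the AAV-Null level. The log2 fold change was -0.15 (SE 0.17, edgeR adjusted p = 0.961; 95% interval -0.53 to 0.22). Dgat2 (chromosome 7, 99153663 to 99182713, minus strand), whose enzyme uses newly made fatty acids in liver and fat, had 308, 310, 264, 244 and 316 CPM in AAV-Osm 1 to 5 and 283, 283, 258 and 227 CPM in AAV-Null 1 to 4. Its log2 fold change was 0.14 (SE 0.13, edgeR adjusted p = 0.955; 95% interval -0.15 to 0.42), and the groups overlapped. The RPKM ratio of Dgat2 to Dgat1 was 10.0 and 12.1 in AAV-Osm 1 and 5, 5.48 to 7.17 in the other AAV-Osm libraries and 5.05 to 6.87 in AAV-Null libraries. The sum of a skeletal muscle list (7 of 11 markers in the table), of which Ckm made up 91.3% and Acta1 8.55%, both also expressed in heart muscle, was likewise lowest in AAV-Osm 1 and 5, at 3809 and 3758 CPM, against 5553 to 6196 CPM in the other AAV-Osm and 5010 to 6473 CPM in AAV-Null libraries. The other 5 markers of that list, Tnnt3, Tnni2, Mylpf, Actn3 and Atp2a1, were at 0 to 2.45 CPM in AAV-Osm and 0.288 to 3.13 CPM in AAV-Null libraries, so the sum is in the main a level of Ckm. Its part in the Mgll and Dgat1 values was not tested.

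**Figure D4:**
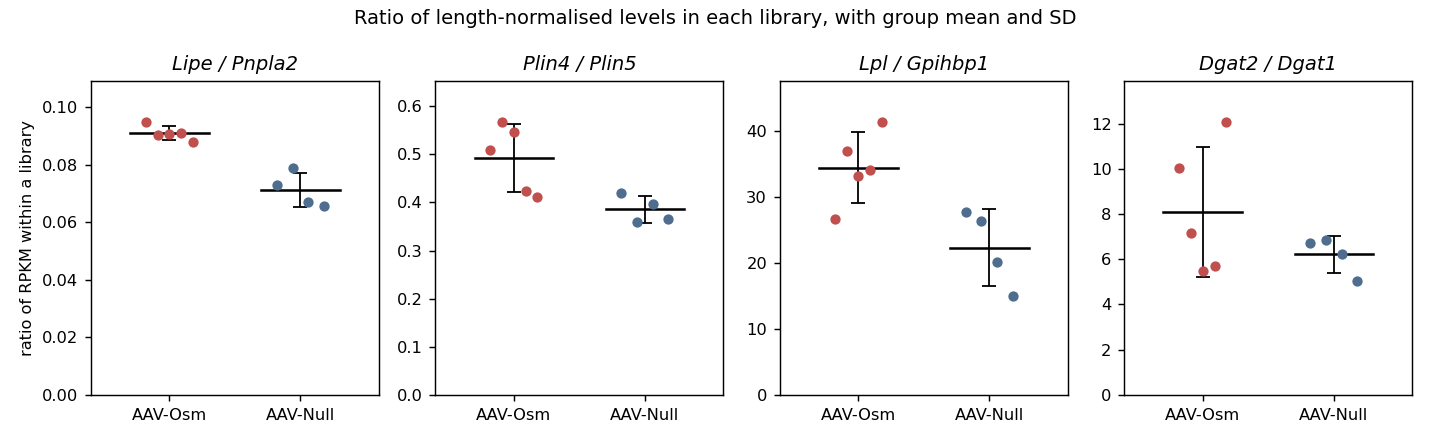
Ratio of length-normalised levels (RPKM) of 4 pairs of genes within each library, axes from 0, with group mean and SD. Lipe to Pnpla2 does not overlap between groups (0.0880 to 0.0949 in AAV-Osm, 0.0657 to 0.0790 in AAV-Null), and Dgat2 to Dgat1 is highest in AAV-Osm 1 and 5, at 10.0 and 12.1.

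Between the lipases of the first 2 steps, the RPKM ratio of Lipe to Pnpla2 was 0.0910 ± 0.00247 in AAV-Osm (SD, n = 5) and 0.0712 ± 0.00607 in AAV-Null hearts (SD, n = 4). It did not overlap between the groups, and it carries the Lipe difference. The ratio of Pnpla2 to Abhd5 overlapped, at 11.5 to 17.3 in AAV-Osm and 11.9 to 15.2 in AAV-Null libraries. Over the 9 libraries, log2 CPM of Mgll and Dgat1 had a Pearson r of 0.80 (0.76 with the group means removed), that of Lipe and Plin4 0.75 (0.50) and that of Lipe and Pnpla2 0.63 (0.76). The most negative were Abhd5 with Dgat1, -0.78 (-0.88), and Gpihbp1 with Dgat2, -0.77 (-0.74). These are descriptions over 9 libraries that share depth and RNA between genes. Over the whole table the genes most like each of the 10 reached r of 0.91 to 0.98, with Gm15760 and Tti2 nearest to Lipe (0.95 and 0.94), Abcb1b and Bok nearest to Gpihbp1 (0.98 and 0.97), and Lrtm1 and Ppp2r5b nearest to Dgat1 (both 0.98).

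In 5 lists of further genes of lipid delivery, storage and release, 90 different genes were tested: 1 rose, 0 fell, and 89 stayed above the threshold. Over all genes 0.121% passed, 16 of 13192. The lists were chosen with earlier results of these data known, so the count is a description. The median log2 fold change of the 90 genes was 0.005, beside 0.009 over all genes. Angptl4, above, was the gene that rose.

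**Figure D5:**
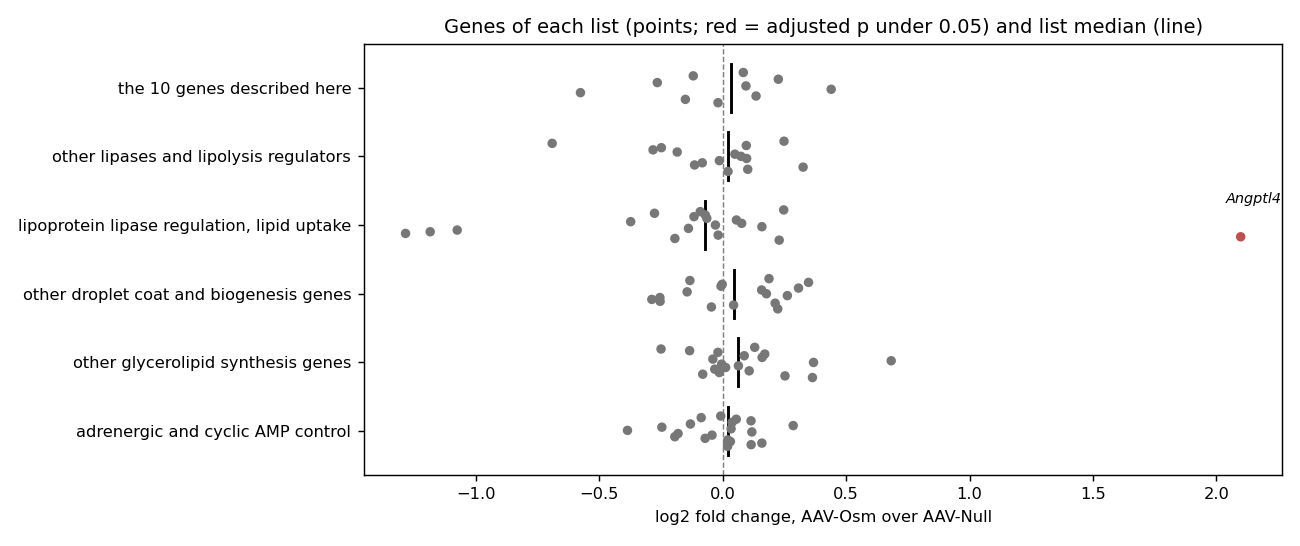
Log2 fold change, AAV-Osm over AAV-Null, of the 10 genes (top row) and of the genes of 5 lists of the same pathways; each point is a gene, the black line is the list median, and red marks an edgeR adjusted p under 0.05. Angptl4, at 2.10, is the red point, and the medians of all 6 rows lie between -0.071 and 0.064.

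Of 19 tested genes for lipoprotein lipase maturation, its regulation and lipid uptake, 1 rose (Angptl4), 0 fell and 18 passed in neither direction, with a median of -0.071. For Lmf1, needed to fold the lipase, the log2 fold change was 0.06 (SE 0.16), and for the receptor gene Vldlr 0.25 (SE 0.13, edgeR adjusted p = 0.884) at 298 CPM in AAV-Osm and 251 CPM in AAV-Null hearts on average. The fatty acid transporter gene Cd36 had a value of 0.16 (SE 0.17). The lowest values were those of the apolipoprotein genes Apoa5, Apoc1 and Apoc3 (-1.29, -1.19 and -1.08, SE 0.80, 0.79 and 0.84), also named after their values were seen. They are made mainly in liver and were each highest in AAV-Null 3, where the liver-type markers summed highest; the part of liver-type RNA was not tested. Without AAV-Null 3 and AAV-Null 4, Apoc1 and Apoc3 had positive values. Apoe, made by macrophages among others, had a value of -0.14 (SE 0.25) that turned to 0.35 without AAV-Null 4 and AAV-Osm 5.

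Of 15 tested lipases and lipolysis regulators 0 rose and 0 fell, with a median of 0.022. G0s2, whose product inhibits adipose triglyceride lipase, was at 37.6 to 57.7 CPM in AAV-Osm and 46.5 to 73.6 CPM in AAV-Null libraries (log2 fold change -0.28, SE 0.16, edgeR adjusted p = 0.909), and Hilpda, another inhibitor of it, had a value of -0.25 (SE 0.21). The lysosomal acid lipase gene Lipa had one of 0.10 (SE 0.12), the monoacylglycerol lipase gene Abhd6 one of 0.10 (SE 0.17), the fatty acid binding protein gene Fabp3 one of 0.05 (SE 0.13), and Acsl1, which activates fatty acids, one of 0.33 (SE 0.24).

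Of 17 tested droplet coat and biogenesis genes 0 rose and 0 fell, with a median of 0.044. Plin2, the perilipin found on droplets in most cells, had 71.8, 73.1, 65.8, 58.6 and 72.0 CPM in AAV-Osm 1 to 5 and 50.6, 51.4, 62.5 and 56.1 CPM in AAV-Null 1 to 4. AAV-Osm 4 lay below AAV-Null 3, and the other AAV-Osm libraries lay above all AAV-Null libraries (log2 fold change 0.31, SE 0.13, edgeR adjusted p = 0.773). Plin3 had a value of -0.01 (SE 0.17). The droplet budding genes Fitm1 and Fitm2 had values of -0.25 (SE 0.15) and 0.26 (SE 0.20), and the seipin gene Bscl2 one of 0.04 (SE 0.15).

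Of 19 tested glycerolipid synthesis genes 0 rose and 0 fell, with a median of 0.064. Gpam, the mitochondrial enzyme gene for the first acylation of glycerol phosphate, had 40.5, 33.9, 30.4, 20.4 and 24.9 CPM in AAV-Osm 1 to 5 and 21.1, 17.8, 19.2 and 16.8 CPM in AAV-Null 1 to 4. AAV-Osm 4 lay within the AAV-Null range and the other AAV-Osm libraries above it. Its log2 fold change was 0.68 (SE 0.19, edgeR adjusted p = 0.468), and limma-voom with quality weights called it (adjusted p = 0.0363; 0.0363 to 0.901 over the alternatives). The endoplasmic reticulum enzyme genes for that step, Gpat3 and Gpat4 (Agpat9 and Agpat6 in the table), had values of 0.37 (SE 0.17) and -0.0045 (SE 0.13), Agpat3 one of -0.03 (SE 0.12) and the phosphatidate phosphatase gene Lpin1 one of -0.13 (SE 0.13).

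Of 20 tested genes for adrenergic and cyclic AMP control of lipolysis 0 rose and 0 fell, with a median log2 fold change of 0.020. The beta-adrenergic receptor gene Adrb1 had a value of 0.03 (SE 0.13). The catalytic kinase subunit gene Prkaca, whose product phosphorylates hormone-sensitive lipase and perilipins, had a value of -0.13 (SE 0.18), and the phosphodiesterase genes Pde3a and Pde4d had 0.12 (SE 0.22) and 0.29 (SE 0.15, edgeR adjusted p = 0.883).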

How the data were processed

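RNA-seq libraries of 9 heart apex samples were grouped by the treatment in the labels, 5 AAV-Osm and 4 AAV-Null; replicate numbers only name libraries and pair none. Per the submitters' processing notes, the authors used STAR 2.5.2b, featureCounts and Subread 1.5.1 with mm10; neither annotation nor strand setting is named there. What the authors deposited is a table of raw counts per gene beside summed exon length; its 4141 blank lines were left out. All 13192 genes exceeded 0.5 CPM in 4 or more libraries; genes below this level were not analysed here. Totals ran from 11841106 to 30625134 counts, and 0 pairs of libraries were identical. The smallest chi-square per degree of freedom of a pair was 6.52, for AAV-Null 1 and AAV-Null 2, followed by 9.68 for AAV-Osm 2 and AAV-Osm 3. All other pairs ran from 17.3 to 132, and other pairs within a group from 30.1 to 98.1. The libraries of those 2 pairs were thus closer to each other than any others. Each library was counted as 1 sample, though these values cannot tell whether 2 libraries came from different mice. No alternative left out a library of both close pairs together.

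Counts were tested over all genes with edgeR 4.0.16 (R 4.3.3; TMM, filterByExpr, which removed 0 genes, robust two-sided quasi-likelihood F test, group as the only term), with Benjamini-Hochberg adjustment. The SE of a log2 fold change is its size divided by the square root of its F value, and intervals use the t quantile at the degrees of freedom of the fit. Log2 CPM used a prior count of 2. The test was checked on simulated counts with known changes, 50 genes at each size. It recovered 8 of those changed 1.5-fold, 40 at 2-fold, 48 at 3-fold and 49 at 4-fold. Changes of about 1.5-fold were thus mostly missed. More calls make the adjusted threshold looser, and the simulation gave 153 calls against 16 in the data. Recovery in the data may therefore be lower.

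The 10 genes and all lists were chosen with earlier results of these data known. Named were the 10 genes, a set of 26 pathway genes where in the table, list genes past the threshold, the gene of each list with the smallest p, and the 2 genes most like each of the 10, of which those of 3 genes are printed. Motifs were searched in RefSeq promoter windows (GRCm38.p6). Alternatives were RLE, upper-quartile and total-count scaling, no filter or a mean of at least 5 CPM, DESeq2 1.42.0, limma 3.58.1 (voom, without and with quality weights), dispersions that are not robust, and libraries left out.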

Additional observations from a re-analysis of the deposited data

Results flagged for a closer look

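In AAV-Null 4 the Gpihbp1 level was 151 CPM, far from the other AAV-Null libraries at 90.5 to 95.2 CPM. The same library stood apart from its group in the sum of the skeletal muscle list, at 6470 CPM against 5010 to 5160 CPM (91.3% of it Ckm and 8.55% Acta1, which heart muscle also expresses), and in the summed mesothelial markers, at 145 CPM against 49.5 to 62.6 CPM. These came from 38 groups of values checked (10 genes and 9 marker sums in 2 groups), where chance gives about 1 in 20.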

How the results depend on the processing

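Of the 10 genes 0 passed in any of the 20 alternatives. Of their alternative values 197 kept their direction and 3 did not; Lpl turned to -0.0299 without AAV-Null 3 and AAV-Null 4, and Abhd5 ran from -0.084 to 0.028 with 1 library left out. The count over all genes, 16, was 5 with a mean of at least 5 CPM, 53 with DESeq2, 170 with limma-voom and quality weights and 4 to 11 with 1 library left out. The pathway genes past the threshold, 1, were 0 with a mean of at least 5 CPM, 2 with limma-voom and quality weights and 0 to 1 with 1 library left out. By CPM in place of RPKM, 2 of the 10 genes kept their place in the order of levels, since CPM is not divided by length. Some pathway values turned sign, and not only those near 0. In edgeR with all 9 libraries Apoc1 was -1.19, Apoc3 -1.08, Acsl1 0.33 and Hilpda -0.25. With limma-voom and quality weights, Apoe was 0.25, Hilpda 0.0574, Agpat3 0.0651, Acsl1 -0.0426 and Pde3a -0.0245. Without AAV-Null 4 and AAV-Osm 5, Apoe was 0.35, Plin3 0.0312 and Agpat3 0.0446. Without AAV-Null 3 and AAV-Null 4, Apoe was 0.32, Hilpda 0.0901, Agpat3 0.0519, Pde3a -0.0771, Apoc1 0.73 and Apoc3 0.76. Agpat6 was 6e-04 with a mean of at least 5 CPM. With 1 library left out, Lmf1 ran from -0.0142 to 0.20, Fabp3 from -0.0015 to 0.10, Apoe from -0.27 to 0.26, Plin3 from -0.13 to 0.10, Bscl2 from -0.0351 to 0.12, Agpat6 from -0.0626 to 0.0379, Agpat3 from -0.0909 to 0.0161, Abhd6 from -0.0407 to 0.18, Adrb1 from -0.0323 to 0.0936 and Pde3a from -0.0506 to 0.23. The cause was not tested. No paired analysis was possible because the GEO labels give no replicate numbers; the numbers used here were assigned in accession order within each group and only name libraries.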
